A study of Rattus norvegicus with 32 samples.

Results

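The ion exchangers and cotransporters examined here are the measured genes of 5 solute carrier families, taken as every row of the expression table whose single gene symbol begins with Slc4a, Slc9a, Slc12a, Slc13a or Slc26a and a number. The rule gave 38 genes among 19434 transcript clusters, or among the 13215 genes that could be named by 1 symbol. There were 10 bicarbonate transporters (Slc4), 7 sodium-hydrogen exchangers (Slc9), 7 cation-chloride cotransporters (Slc12), 5 sodium-sulfate and sodium-carboxylate cotransporters (Slc13) and 8 anion exchangers (Slc26), and the name pattern also took Slc4a1ap, which encodes a protein that binds the product of Slc4a1. Each gene had 1 row, and 1 further row that carried 2 symbols was left out.

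Expression was measured on Affymetrix rat exon arrays in Sprague-Dawley rats, in liver and in 3 stretches of small intestine (duodenum, jejunum, ileum). The lactating rats were at days 10 to 11 of lactation and the controls were virgin rats of comparable age, and no drug or transgene is named for either group. Litters were trimmed in size, chow was freely available, and tissue was taken at the same hour in both groups. Each of the 8 groups (control and lactating, in 4 tissues) had 4 pools, each pool held the RNA of 4 rats, and the same rats were pooled in every tissue, so an array reports a mean over rats and the spread between rats within a pool is not seen. Lactating and virgin rats differ in food intake, hormones and pregnancy history together, and these cannot be told apart. The study asked how gene expression in these organs adjusts to lactation.

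These carriers move ions across membranes without pumps of their own and draw on the sodium gradient set by the sodium-potassium ATPase or on the gradients of chloride and bicarbonate. In the intestinal epithelium, absorption of salt without net charge rests on apical sodium-hydrogen exchange by Slc9a3 (NHE3) and Slc9a2 (NHE2) working side by side with chloride-bicarbonate exchange by Slc26a3 (DRA). Secretion depends on the basolateral sodium-potassium-chloride cotransporter Slc12a2 (NKCC1) and on basolateral sodium-bicarbonate cotransporters such as Slc4a4 (NBCe1). Sulfate enters from the lumen through Slc13a1 (NaS1), and hepatocytes exchange sulfate and oxalate through Slc26a1 (Sat1).

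Values are log2 RMA levels, so a difference of 1 is a doubling, and levels are compared between groups for 1 gene at a time because probes of different genes differ in brightness. All 6 hepatocyte markers measured reached a group mean of 6 in liver and none did in any intestinal segment. All 5 enterocyte markers measured did so in each segment, and 1 of them also did in liver. The 6 pancreatic acinar markers were also above that level in the control duodenum, and 1 of them was in liver. Control and lactating pools that share replicate number 1 or 4 departed from their group means in like ways, with correlations of 0.344 and 0.555. Those that share number 2 or 3 did so weakly (0.154 and 0.105). Replicate number was therefore added to the model as a second setting, named below as the fit with the replicate block.

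Tissue set the level of most of these genes. In control rats, 29 of the 38 genes (76.3%) had a level in liver unlike the average of duodenum, jejunum and ileum (limma, adjusted p under 0.05), where 46.3% of all clusters passed the same test. Of these, 11 were higher in liver and 18 lower, against 22.7% and 23.6% of all clusters. Taking a group mean of 6 as a descriptive mark, 9 genes reached it only in intestine, 5 only in liver, 8 in both and 16 in neither. These values come from homogenised tissue, in which fewer cells of a type and less RNA per cell cannot be told apart.

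**Figure D1:**
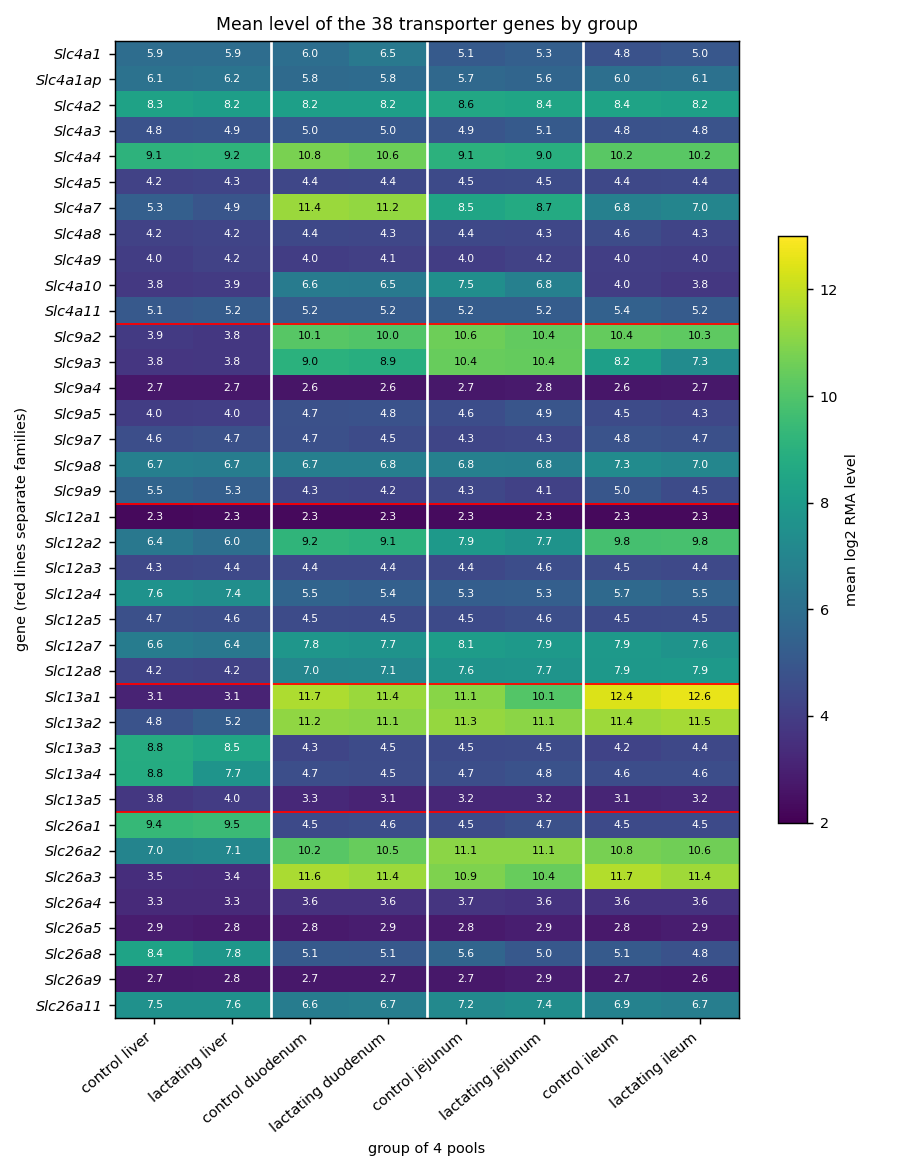
Mean log2 RMA level of the 38 genes (rows, by family) in the 8 groups of 4 pools (columns), with colour and printed value for the mean. Slc13a1 and Slc26a3 are at 12.42 and 11.73 in control ileum and at 3.11 and 3.46 in control liver, and Slc26a1 shows the opposite contrast.

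The intestinal set held the carriers of apical sodium, sulfate and chloride uptake. Slc13a1, the sodium-sulfate cotransporter of the brush border, was lower in control liver than in intestine, with a log2 difference of -8.60 ± 0.10 (SE, 4 pools in each group, 388-fold, adjusted p = 5.58e-32). The difference of Slc26a3 was -7.94 ± 0.07 (245-fold, adjusted p = 2.2e-34). Slc9a2 and Slc9a3 differed by -6.51 ± 0.07 and -5.47 ± 0.13. For Slc13a2 (NaDC1), which takes up citrate and succinate with sodium, the difference was -6.45 ± 0.10. Because control liver means of 3.11 for Slc13a1 and 3.46 for Slc26a3 were not tested against background, these folds may be lower bounds, and the same holds for other genes with a liver mean near these. Smaller differences in the same direction were found for Slc26a2 (-3.67 ± 0.09), a sulfate transporter needed for sulfation of cartilage matrix, for Slc4a7 (-3.53 ± 0.13), the electroneutral sodium-bicarbonate cotransporter NBCn1, for Slc12a8 (-3.27 ± 0.08) and for Slc12a2 (-2.57 ± 0.14).

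The liver set held other members of the same families. Slc26a1 was 4.91 ± 0.12 (SE) higher in control liver than in intestine (30.1-fold, adjusted p = 1.69e-24). Slc13a3 (NaDC3), the high-affinity dicarboxylate cotransporter, was 4.49 ± 0.09 higher, and Slc13a4, a second sodium-sulfate cotransporter of the family, was 4.12 ± 0.09 higher. Slc26a8, an anion exchanger best known from sperm, was 3.14 ± 0.11 higher, and Slc12a4 (KCC1), a potassium-chloride cotransporter linked to cell volume, was 2.11 ± 0.10 higher. Each of the Slc13 and Slc26 families therefore had called members on both sides: Slc13a1 and Slc13a2 were higher in intestine and Slc13a3, Slc13a4 and Slc13a5 in liver, and Slc26a2, Slc26a3 and Slc26a4 were higher in intestine and Slc26a1, Slc26a8 and Slc26a11 in liver. Slc13a5 (citrate cotransporter) and Slc26a4 (pendrin) did not reach a group mean of 6 anywhere, and their differences were 0.59 ± 0.10 and -0.32 ± 0.08.

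Of the 16 genes that stayed below 6 in every group, several are known mainly from other organs. Slc12a1 and Slc12a3, the diuretic-sensitive cotransporters of the kidney, had group means of 2.26 to 2.33 and of 4.34 to 4.60. Slc9a4, known from gastric mucosa, was at 2.62 to 2.80, Slc26a5 (prestin of cochlear hair cells) at 2.77 to 2.91, and Slc26a9, a chloride transporter of stomach and airway, at 2.65 to 2.85. The others were Slc4a3, Slc4a5, Slc4a8, Slc4a9, Slc4a11, Slc9a5, Slc9a7, Slc9a9, Slc12a5, Slc13a5 and Slc26a4. Whether such a level differs from background was not tested, because detection calls were not used here.

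Gradients along the small intestine were compared next. In control rats, 14 of the 38 genes (36.8%) differed between duodenum and ileum, where 20.8% of all clusters were called. Of these, 6 were higher in duodenum and 8 lower, against 5.3% and 15.5% of all clusters. Duodenum against jejunum gave 15 genes (39.5%, all clusters 13.1%), and jejunum against ileum also gave 15 (39.5%, all clusters 26.1%). In lactating rats the counts were 14, 11 and 19, with 17.8%, 16.9% and 30.4% of all clusters. The number called in both states was 12 for duodenum against ileum, 11 for duodenum against jejunum and 12 for jejunum against ileum, and each of these kept its direction.

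Of the 17 genes that reached 6 in an intestinal group, 3 had their highest control mean in duodenum, 7 in jejunum and 7 in ileum. The highest and lowest segments were the same in lactating rats for 16 of the 17. The exception was Slc12a7 (KCC4), a potassium-chloride cotransporter whose lowest segment was the duodenum in controls and the ileum in lactating rats, with means between 7.64 and 8.08. Its lactating means in duodenum and ileum were nearly equal, at 7.65 and 7.64, with overlapping pools.

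**Figure D2:**
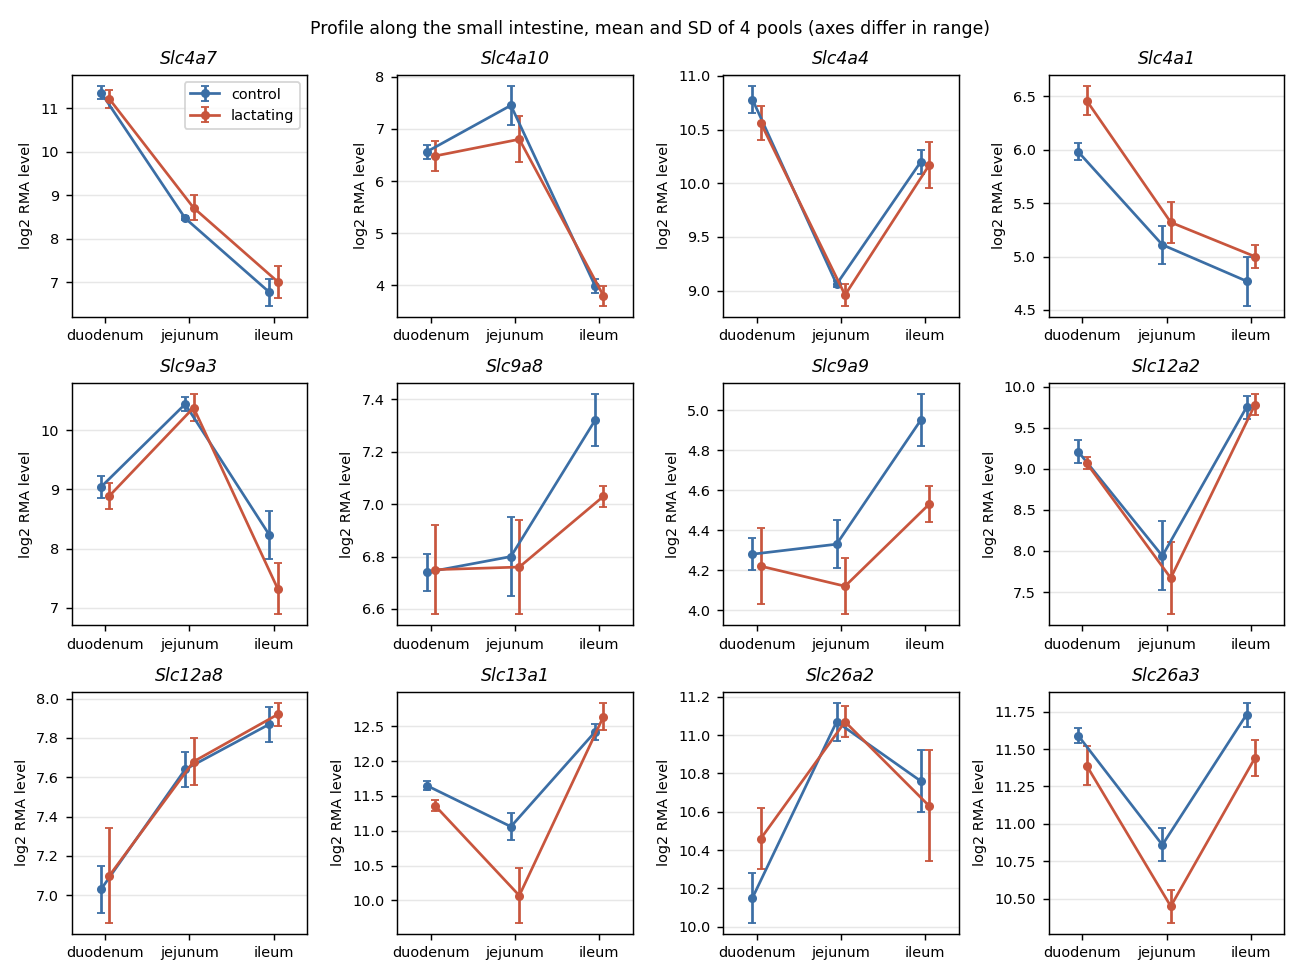
Mean and SD over 4 pools of the log2 RMA level (vertical axis, range set per gene) along duodenum, jejunum and ileum in control (blue) and lactating (red) rats for 12 genes. Slc4a7 drops from 11.36 to 6.77 from control duodenum to control ileum, Slc4a4, Slc12a2, Slc13a1 and Slc26a3 are lowest in jejunum, and Slc9a3 is highest there.

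Slc4a7 and Slc4a10 had the widest ranges of segment means in control rats among the 38 genes, at 4.59 and 3.46, followed by Slc9a3 at 2.21. Slc4a7 was at 11.43, 11.20, 11.28 and 11.55 in the 4 control duodenal pools, at 8.52, 8.41, 8.48 and 8.49 in jejunum and at 7.10, 6.96, 6.44 and 6.57 in ileum. In lactating rats it was at 11.38, 10.98, 11.11 and 11.37 in duodenum, at 8.78, 8.53, 8.44 and 9.08 in jejunum and at 7.24, 6.94, 6.52 and 7.35 in ileum. The 3 segments did not overlap in either state. The control difference between duodenum and ileum was 4.59 ± 0.16 (24.2-fold, adjusted p = 7.39e-19), and the lactating one was 4.20 ± 0.16 (18.4-fold). In liver the pools were at 4.97, 5.30, 5.62 and 5.48 in controls and 4.75, 4.72, 4.95 and 5.17 in lactating rats.

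Slc4a10, a sodium-dependent bicarbonate transporter studied mostly in brain, was present in the upper intestine and low in ileum. Control pools were at 6.37, 6.60, 6.61 and 6.66 in duodenum, 6.87, 7.65, 7.62 and 7.66 in jejunum and 4.02, 3.86, 3.91 and 4.15 in ileum. The ileum lay below both other segments in every pool and was close to the control liver level of 3.70 to 3.90. The jejunum was 3.46 ± 0.17 above the ileum (11.0-fold, adjusted p = 3.33e-15) and the duodenum differed from the jejunum by -0.89 ± 0.17 (1.85-fold, adjusted p = 0.000419). In lactating rats Slc4a10 was at 6.09, 6.62, 6.46 and 6.76 in duodenum, 6.47, 6.65, 6.64 and 7.45 in jejunum and 3.90, 3.98, 3.77 and 3.55 in ileum. Duodenum and jejunum overlapped there, and their difference of -0.32 ± 0.17 was not called (adjusted p = 0.22).

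Slc4a4, the electrogenic cotransporter that loads cells with bicarbonate across the basolateral membrane, had a different profile, with the jejunum lowest. It was at 10.79, 10.65, 10.72 and 10.95 in control duodenum, 9.02, 9.08, 9.08 and 9.06 in control jejunum and 10.33, 10.15, 10.08 and 10.22 in control ileum. No segment overlapped another. Duodenum exceeded jejunum by 1.72 ± 0.11 (3.28-fold, adjusted p = 2.01e-12) and ileum by 0.58 ± 0.11 (1.49-fold, adjusted p = 0.000187). In lactating rats the pools were at 10.71, 10.42, 10.42 and 10.68 in duodenum, 9.09, 8.87, 8.91 and 8.96 in jejunum and 10.36, 10.20, 9.88 and 10.24 in ileum, and the liver held 8.71 to 9.38 over both states.

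Slc4a1 (AE1), the chloride-bicarbonate exchanger best known from red cells, was highest in duodenum. Control pools were at 5.91, 5.94, 5.97 and 6.09 in duodenum, 5.35, 4.94, 5.02 and 5.12 in jejunum and 4.47, 4.75, 5.03 and 4.83 in ileum. Duodenum lay above both other segments, by 0.87 ± 0.11 over jejunum (1.82-fold, adjusted p = 1.91e-06) and by 1.2 ± 0.11 over ileum (2.31-fold, adjusted p = 1.4e-09). The single erythroid marker measured of 9 listed, Epb42, was at 2.45 to 3.29 in every array.

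Pancreatic acinar markers were measured beside the duodenal values. All 6 were higher in control duodenum than in control ileum, with a median difference of 7.38, and their summed level was 13.54 to 14.61 in control duodenum, 6.41 to 6.75 in control jejunum and 6.60 to 7.37 in control ileum. In lactating duodenum the summed level was 8.11 to 12.66. The duodenal excess over ileum in lactating rats was 4.20 ± 0.16 for Slc4a7, 2.68 ± 0.17 for Slc4a10, 1.47 ± 0.11 for Slc4a1 and 0.39 ± 0.11 for Slc4a4, all called. In control rats, where the acinar level was higher, these differences were 4.59, 2.57, 1.2 and 0.58. The part of acinar cells in the duodenal values of either state was not tested.

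Among sodium-hydrogen exchangers, Slc9a3, which carries most sodium absorption across the brush border, peaked in jejunum. It was at 9.12, 9.08, 9.20 and 8.77 in control duodenum, 10.31, 10.53, 10.56 and 10.35 in control jejunum and 8.33, 8.73, 8.03 and 7.82 in control ileum. The segments did not overlap. Duodenum minus jejunum was -1.39 ± 0.16 (2.63-fold, adjusted p = 4.55e-07), and jejunum exceeded ileum by 2.21 ± 0.16 (4.63-fold, adjusted p = 2.72e-11). Slc9a2 had a shallower peak in the same place, with control means of 10.14, 10.56 and 10.39 in duodenum, jejunum and ileum and a difference of duodenum from jejunum of -0.42 ± 0.09 (adjusted p = 0.000921).

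A pair of exchangers known from intracellular membranes was higher in ileum. Slc9a8 (NHE8), found on Golgi and apical membranes, was at 6.63, 6.80, 6.77 and 6.75 in control duodenum, 6.57, 6.87, 6.90 and 6.85 in jejunum and 7.26, 7.26, 7.29 and 7.47 in ileum. Its control ileum lay above the other segments in every pool, with duodenum minus ileum at -0.58 ± 0.09 (1.5-fold, adjusted p = 2.81e-05). Slc9a9 (NHE9), of endosomes, was at 4.18, 4.27, 4.30 and 4.38 in control duodenum, 4.27, 4.51, 4.22 and 4.32 in jejunum and 4.94, 5.10, 4.78 and 4.96 in ileum, with duodenum minus ileum at -0.66 ± 0.11 (1.58-fold, adjusted p = 2.77e-05). Its levels stayed below 6 throughout, and the liver pools, at 5.20 to 5.70 in controls and 5.12 to 5.73 in lactating rats, were the highest.

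Of the cation-chloride cotransporters, Slc12a2, the basolateral entry step for secreted chloride, was lowest in jejunum, with control means of 9.21, 7.94 and 9.75 from duodenum to ileum. Duodenum exceeded jejunum by 1.26 ± 0.18 (2.4-fold, adjusted p = 7.54e-06), and jejunum minus ileum was -1.81 ± 0.18 (3.5-fold, adjusted p = 6.53e-09). Slc12a8 (CCC9), a family member whose transport role is debated, rose from 6.93, 7.08, 7.17 and 6.92 in control duodenum to 7.58, 7.71, 7.55 and 7.72 in jejunum and 7.77, 7.93, 7.82 and 7.95 in ileum. The control segments were fully separate, and duodenum minus ileum was -0.84 ± 0.09 (1.79-fold, adjusted p = 5.13e-08). In lactating rats Slc12a8 was at 6.74, 7.25, 7.15 and 7.25 in duodenum, 7.62, 7.86, 7.62 and 7.63 in jejunum and 7.97, 7.97, 7.84 and 7.89 in ileum.

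Of the sulfate carriers, Slc26a2 was at 10.16, 10.00, 10.11 and 10.31 in control duodenum, 10.94, 11.06, 11.08 and 11.19 in control jejunum and 10.73, 10.66, 10.64 and 10.99 in control ileum. The duodenum lay below both other segments, with differences of -0.92 ± 0.11 from jejunum (1.89-fold, adjusted p = 7.13e-07) and -0.61 ± 0.11 from ileum (1.52-fold, adjusted p = 0.000117). In lactating rats the pools were at 10.38, 10.58, 10.27 and 10.59 in duodenum, 11.07, 11.03, 10.99 and 11.19 in jejunum and 10.96, 10.64, 10.25 and 10.68 in ileum. Duodenum and ileum overlapped in lactating rats, and that difference was not called (adjusted p = 0.343).

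Lactation was tested in each tissue. It lowered 2 of the 38 genes in liver, Slc13a4 and Slc26a8 (5.26%, where 1.88% of all clusters were called in either direction and 1.17% were lower). No member was called in duodenum, where 0.643% of all clusters were. Slc13a1 and Slc26a3 were lower in jejunum (5.26%, all clusters 0.808%, of which 0.463% lower), and Slc9a3 was lower in ileum (2.63%, all clusters 1.28%, of which 0.803% lower). No member was called higher in any tissue. The median difference of the 38 genes was 0.02, -0.02, 0.01 and -0.04 in liver, duodenum, jejunum and ileum, against 0.01, 0.04, 0.01 and 0.02 over all clusters.

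With the replicate block the counts were 2, 1, 4 and 4, where 4.13%, 1.86%, 2.1% and 3.78% of all clusters were called. The block added Slc4a1 in duodenum, higher in lactating rats (adjusted p = 0.0298), Slc4a10 (adjusted p = 0.0383) and Slc26a8 (adjusted p = 0.00931) in jejunum, both lower, and Slc4a8 (adjusted p = 0.0403), Slc4a11 (adjusted p = 0.0463) and Slc9a9 (adjusted p = 0.0144) in ileum, all lower. Slc4a10 in jejunum, with an adjusted p of 0.106 without the block, was also called without control pool 1, which lay apart from its group, or without lactating pool 4. Counting genes whose 4 lactating pools did not overlap the 4 control pools gave 2 in liver (all clusters 5.21%), 2 in duodenum (all clusters 5.78%), 5 in jejunum (all clusters 5.37%) and 7 in ileum (all clusters 7.51%). The 7 in ileum (18.4% of members) were all lower in lactating rats, where 4.03% of all clusters were: Slc4a8, Slc4a11, Slc9a3, Slc9a8, Slc9a9, Slc12a7 and Slc26a3.

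**Figure D3:**
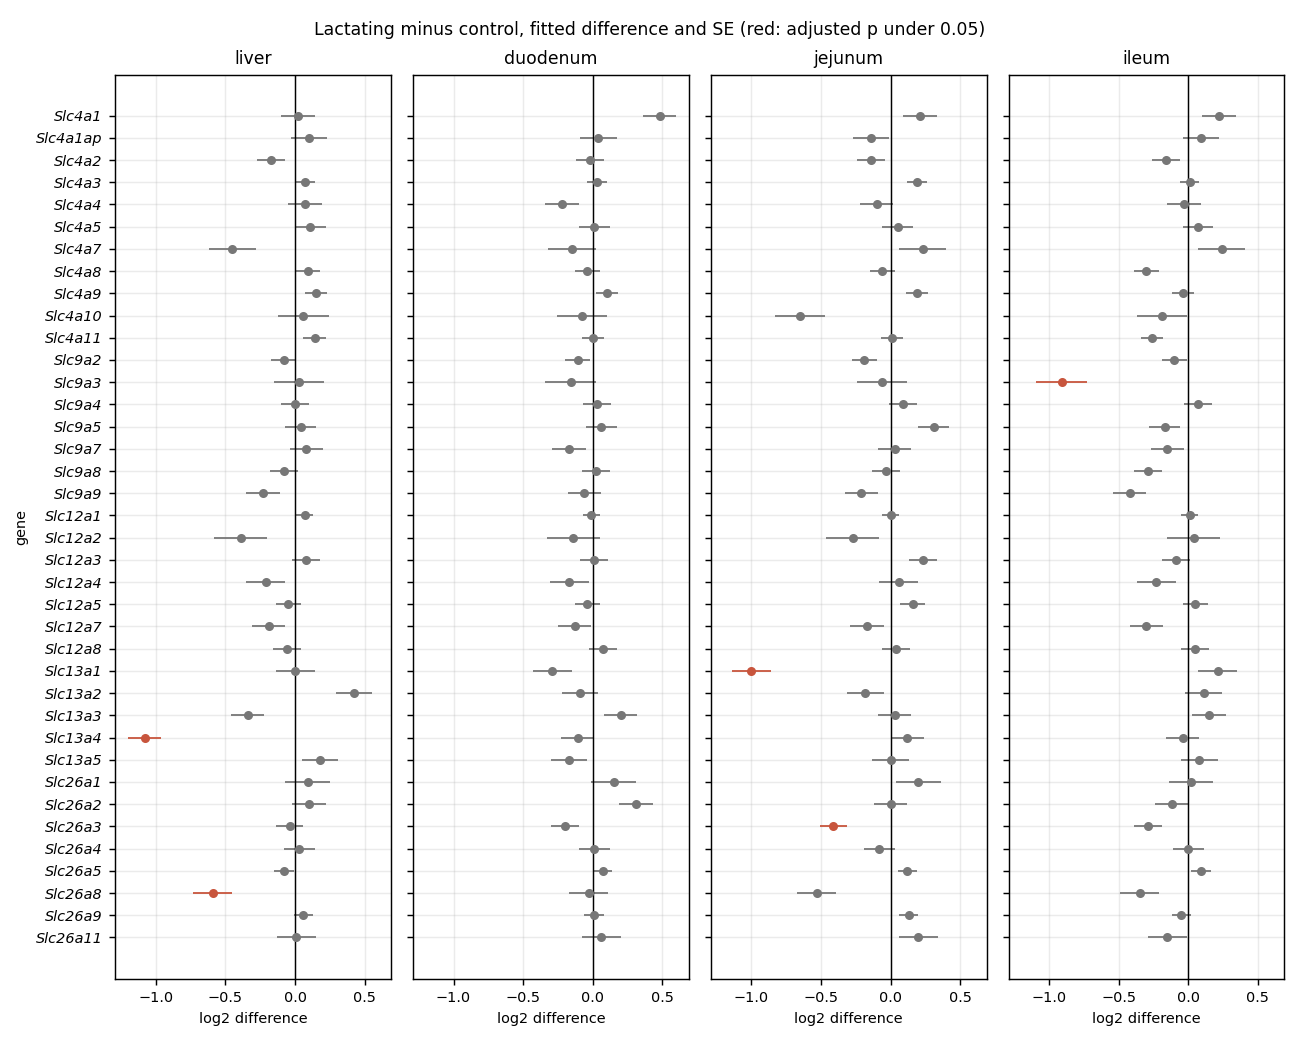
Fitted difference between lactating and control rats with its SE (horizontal axis, log2) for the 38 genes (vertical axis) in the 4 tissues, with red for an adjusted p under 0.05. Slc13a4 and Slc26a8 in liver, Slc13a1 and Slc26a3 in jejunum and Slc9a3 in ileum are red and lie below 0.

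The largest lactation difference among the 38 genes in the 4 tissues was that of Slc13a4 in liver, and it was called under each of the 15 alternatives run. It was at 8.56, 9.18, 8.62 and 8.67 in control liver and 7.51, 7.81, 7.59 and 7.80 in lactating liver. Every lactating pool was below every control pool, and the difference was -1.08 ± 0.12 (2.11-fold lower, adjusted p = 1.27e-06). The intestinal levels were 4.32 to 4.93 over both states, and no difference was called there. The liver difference minus the mean intestinal one was -1.07 ± 0.13 (adjusted p = 3.67e-06), and the test of unequal differences over the 4 tissues was passed as well (adjusted p = 3.01e-05).

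Slc26a8 was at 8.19, 8.67, 8.43 and 8.30 in control liver and 7.81, 7.89, 7.78 and 7.75 in lactating liver. The groups did not overlap, and the difference was -0.59 ± 0.14 (1.5-fold lower, adjusted p = 0.0246). The call ended when any of 5 pools was left out, control pools 2 and 3 and lactating pools 1, 3 and 4, with liver arrays alone and in a mixed model per gene, the adjusted p over the 15 alternatives reaching at most 0.153. In jejunum it was at 5.43, 6.03, 5.45 and 5.39 in controls and 5.24, 5.09, 5.03 and 4.85 in lactating rats, a separation of -0.53 ± 0.14 that missed the threshold (adjusted p = 0.0816, and 0.00931 with the replicate block). Duodenal pools overlapped, at 4.92 to 5.23 and 4.78 to 5.52, as did ileal pools, at 4.83 to 5.44 and 4.58 to 4.89.

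No other member was called in liver. Slc26a1 had means of 9.39 and 9.48 in control and lactating liver, and Slc13a3 had 8.83 and 8.49 (-0.34 ± 0.12, adjusted p = 0.165). The liver difference minus the intestinal one was called for 2 members, Slc13a4 and Slc13a3, both lower in liver (5.26%, all clusters 2.05%, of which 1.19% lower). For Slc13a3 it was -0.47 ± 0.12 (adjusted p = 0.0406). That call ended with the replicate block (adjusted p = 0.0519) without any 1 of control pools 1 to 3 or lactating pools 1 to 4, with no pool block and in the mixed model, the adjusted p reaching at most 0.178. All 6 hepatocyte markers were measured and none was called between states in liver, their summed level being 15.87 to 16.02 in controls and 15.89 to 15.96 in lactating rats.

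In the jejunum, Slc13a1 was at 11.08, 11.25, 10.81 and 11.12 in controls and 10.62, 9.96, 9.71 and 9.99 in lactating rats. No pool overlapped, and the difference was -1.0 ± 0.14 (1.99-fold lower, adjusted p = 0.000121). Fitted on the 8 jejunal arrays alone, it missed the threshold (adjusted p = 0.146). In duodenum the pools were at 11.72, 11.67, 11.56 and 11.65 against 11.43, 11.27, 11.30 and 11.43, again without overlap, but the difference of -0.29 ± 0.14 was not called (adjusted p = 0.534). In ileum they were at 12.50, 12.26, 12.48 and 12.45 against 12.58, 12.38, 12.74 and 12.84, which overlap, with a difference of 0.21 ± 0.14.

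Slc13a1 was the 1 member called for a gradient that differed between the states. Jejunum minus ileum was -1.36 ± 0.13 in control rats (2.57-fold) and -2.57 ± 0.13 in lactating rats (5.93-fold). The change of this difference was -1.21 ± 0.18 (adjusted p = 0.000545). Thus 1 of 38 members was called (2.63%), and 0.216% of all clusters passed that test. Slc9a3 was called as well when clusters were limited to a group mean of 6 or more. No member passed for duodenum against ileum or duodenum against jejunum, where 0.34% and 0.288% of all clusters did. The test of unequal lactation differences over the 4 tissues called Slc13a1 (adjusted p = 0.000396) and Slc13a4 and no other member (2 of 38, or 5.26%, all clusters 2.05%).

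Slc26a3, the apical chloride-bicarbonate exchanger, was at 10.81, 10.98, 10.73 and 10.92 in control jejunum and 10.37, 10.38, 10.46 and 10.60 in lactating jejunum. The groups did not overlap, and the difference was -0.41 ± 0.10 (1.33-fold lower, adjusted p = 0.0452). The call ended when any 1 of the 8 pools was left out, with jejunal arrays alone and with quantile normalization within each tissue, the adjusted p over the 15 alternatives reaching at most 0.296. In duodenum it was at 11.58, 11.54, 11.66 and 11.56 against 11.44, 11.26, 11.30 and 11.54, and in ileum at 11.73, 11.72, 11.63 and 11.83 against 11.31, 11.39, 11.57 and 11.50. The ileal pools were separate, with a difference of -0.29 ± 0.10 that was not called (adjusted p = 0.195). Over the mean of the 3 segments 3 members were called (7.89%, all clusters 2.73%), 2 lower and 1 higher against 1.63% and 1.11% of all clusters, and 8 with the replicate block (all clusters 13.3%). Slc26a3 had a difference of -0.30 ± 0.07 (adjusted p = 0.0108), lost without control pool 2 or lactating pool 2 and in a mixed model per gene (at most 0.0559), and Slc13a1 one of -0.36 ± 0.09 (adjusted p = 0.029), lost without control pool 1, 2 or 4 or lactating pool 2 or 3, in the mixed model and with clusters limited to a group mean of 6 or more (at most 0.144). By segment, Slc13a1 was called in jejunum alone, and its ileal difference had the opposite sign. The third was Slc4a1, which was higher.

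Both Slc13a1 and Slc26a3 had the jejunum as their lowest segment and fell there in lactating rats, so their promoter windows are shown, followed by those of Slc13a4, which had the larger of the 2 called differences in liver, and of Slc9a3, the gene called in ileum. The windows are RefSeq sequence of build GRCr8, from 250 bases before the annotated start to 50 after it, 5′ to 3′ on the gene's strand. They lie at chr4:53612655-53612954 on the minus strand, chr6:53751165-53751464 on the plus strand, chr4:64955937-64956236 on the minus strand and chr1:30995953-30996252 on the minus strand. Capitals mark matches, on either strand, to CAAAGNNCA, a core of sites bound by the liver and gut factor HNF4, to GTTAAT, a half-site of HNF1, and to TTCNNNGAA, the element bound by STAT5 downstream of prolactin.
Slc13a1: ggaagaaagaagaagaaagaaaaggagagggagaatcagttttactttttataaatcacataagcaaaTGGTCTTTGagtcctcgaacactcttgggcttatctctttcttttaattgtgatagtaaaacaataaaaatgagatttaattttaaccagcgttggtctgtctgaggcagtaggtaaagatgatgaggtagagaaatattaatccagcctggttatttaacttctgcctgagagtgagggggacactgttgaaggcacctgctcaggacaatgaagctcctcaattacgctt
Slc26a3: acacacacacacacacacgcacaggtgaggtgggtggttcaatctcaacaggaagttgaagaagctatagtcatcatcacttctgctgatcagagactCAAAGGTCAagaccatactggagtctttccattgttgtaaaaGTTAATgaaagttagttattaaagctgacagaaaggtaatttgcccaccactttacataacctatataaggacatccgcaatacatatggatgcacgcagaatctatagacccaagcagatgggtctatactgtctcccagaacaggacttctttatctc
Slc13a4: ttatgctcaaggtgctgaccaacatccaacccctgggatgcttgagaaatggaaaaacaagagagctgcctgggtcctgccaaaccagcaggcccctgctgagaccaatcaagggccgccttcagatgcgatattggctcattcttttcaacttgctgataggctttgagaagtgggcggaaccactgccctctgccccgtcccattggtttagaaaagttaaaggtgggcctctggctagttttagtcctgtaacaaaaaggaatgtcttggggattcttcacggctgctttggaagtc
Slc9a3: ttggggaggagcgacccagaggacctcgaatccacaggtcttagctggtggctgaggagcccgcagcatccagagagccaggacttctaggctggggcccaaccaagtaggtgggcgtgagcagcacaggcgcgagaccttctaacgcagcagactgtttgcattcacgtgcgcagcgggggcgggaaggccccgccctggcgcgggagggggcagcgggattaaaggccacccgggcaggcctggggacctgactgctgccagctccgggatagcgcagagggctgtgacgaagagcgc

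CAAAGNNCA was found once in the windows of Slc13a1 and of Slc26a3, and GTTAAT once in that of Slc26a3. The windows of Slc13a4 and Slc9a3 held none of the 3, and TTCNNNGAA was in none of the 4. The window of Slc26a8, the other gene called in liver, held none of the 3 motifs and is not printed. Of 33469 rat promoter windows of this length, 6.08% held CAAAGNNCA, 7.45% GTTAAT and 8.87% TTCNNNGAA. Windows were found for 34 of the 38 genes. Of these genes, 5, 1 and 2 held the 3 motifs in any window, the first in Slc4a9, Slc4a10, Slc13a1, Slc13a3 and Slc26a3. These counts are by gene and the shares above by window, so they are not on the same footing. The motifs do not overlap in the windows shown, they were picked after the windows had been read, and a match is a run of letters and not a shown binding site.

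**Figure D4:**
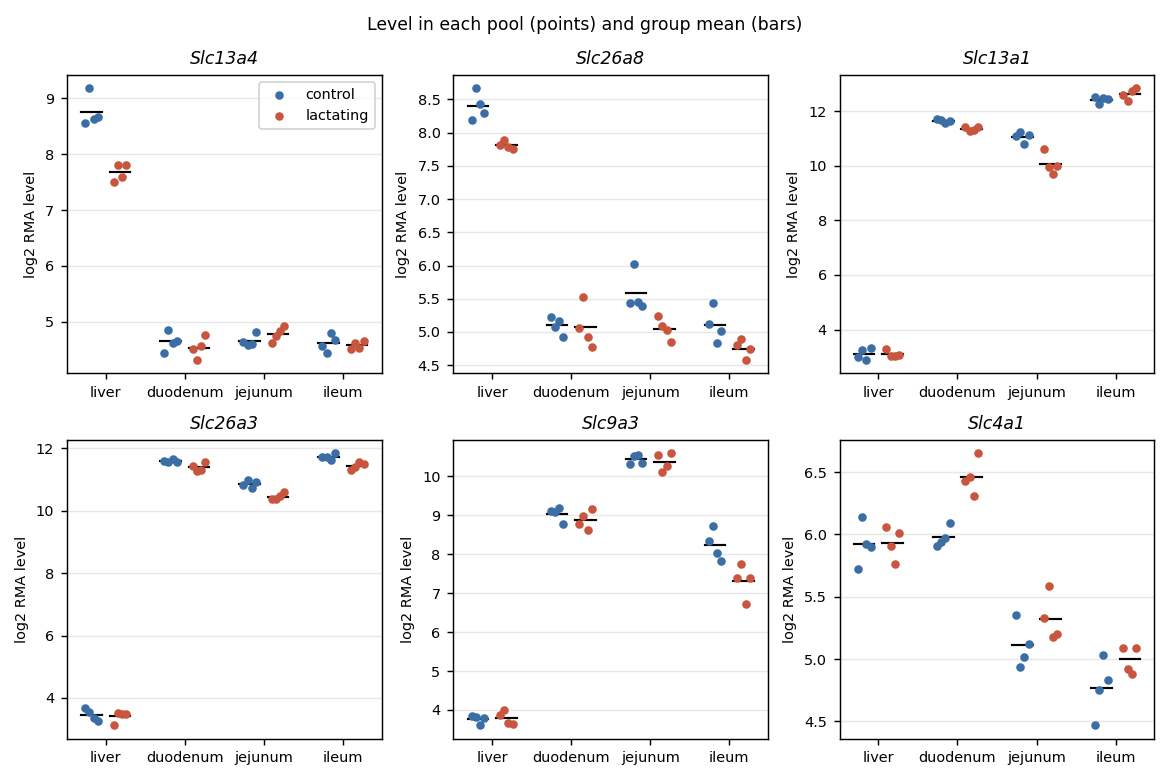
Log2 RMA level (vertical axis, range set per gene) in each pool (points) with the group mean (bars) of 6 genes in control (blue) and lactating (red) rats over 4 tissues. Lactating pools lie below control pools for Slc13a4 and Slc26a8 in liver, Slc13a1 and Slc26a3 in jejunum and Slc9a3 in ileum, and above them for Slc4a1 in duodenum.

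In the ileum, Slc9a3 was at 8.33, 8.73, 8.03 and 7.82 in controls and 7.40, 7.76, 6.73 and 7.38 in lactating rats. The highest lactating pool lay just under the lowest control pool, and the difference was -0.91 ± 0.18 (1.88-fold lower, adjusted p = 0.00535). The call ended without control pool 2 or lactating pool 3 and with ileal arrays alone, the adjusted p over the 15 alternatives reaching at most 0.222. Jejunal pools overlapped, at 10.31 to 10.56 and 10.10 to 10.59, and so did duodenal pools, at 8.77 to 9.20 and 8.63 to 9.15. The test of unequal differences over the 4 tissues was missed (adjusted p = 0.0564), but Slc9a3 was called in it without lactating pool 2 and with clusters limited to a group mean of 6 or more.

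Further carriers in the ileum lay below their controls and were not called, although Slc9a9, Slc4a8 and Slc4a11 were with the replicate block, as given above. Slc9a8 was at 7.26, 7.26, 7.29 and 7.47 in control ileum and 7.02, 6.99, 7.08 and 7.04 in lactating ileum, a clear separation of -0.29 ± 0.10 (adjusted p = 0.215). Slc9a9 was at 4.94, 5.10, 4.78 and 4.96 against 4.44, 4.62, 4.46 and 4.59, also separate, with -0.42 ± 0.12 (adjusted p = 0.0798). Slc4a8 had means of 4.56 and 4.26, Slc4a11 of 5.42 and 5.16, and Slc12a7 of 7.94 and 7.64.

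In the duodenum, Slc4a1 was at 5.91, 5.94, 5.97 and 6.09 in controls and 6.43, 6.46, 6.31 and 6.65 in lactating rats. The groups were apart, yet the difference of 0.48 ± 0.12 (1.40-fold higher) missed the threshold (adjusted p = 0.0584) and passed it only with the replicate block or with array weights. In jejunum and ileum the lactating means were 5.32 and 5.0 against 5.11 and 4.77, with overlapping pools, and over the mean of the 3 segments the difference of 0.31 ± 0.08 was called (adjusted p = 0.0318). That call held without control pool 1 but ended without any other single pool, with quantile normalization within each tissue, with a group mean of 6 or more and in the mixed model (at most 0.123). All 6 pancreatic acinar markers fell in lactating duodenum, by a median of 4.56 on the log2 scale, and the summed level of 2 gland markers, Tff2 and Pgc, was 7.15 to 8.03 in control and 6.42 to 6.56 in lactating duodenum. Their part in the duodenal values was not tested.

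Averaged over the 4 tissues, lactation called 3 members, all lower (7.89%, all clusters 2.51%, of which 1.55% lower). These were Slc26a8 (-0.37 ± 0.09, adjusted p = 0.0168), Slc26a3 (-0.23 ± 0.06, adjusted p = 0.034) and Slc13a4 (-0.27 ± 0.07, adjusted p = 0.0407). The average of Slc13a4 rests on its liver difference, the only 1 called within a tissue. Its differences were unequal by limma's test over the 4 tissues (adjusted p = 3.01e-05). With the replicate block 12 were called, 10 of them lower, where 17.5% of all clusters were called. That fit had a pool correlation of -0.0436, and a negative value lowers the SE of averages over tissues. No member was called with clusters limited to a group mean of 6 or more, in a mixed model per gene, or without control pool 2 or lactating pool 3, and 1 was without control pool 3 or 4 or lactating pool 2. Leaving out control pool 1 ended Slc26a3, and leaving out lactating pool 1 ended Slc13a4 and Slc26a3.

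Markers of other cell types also differed in these tissues. In jejunum, Adipoq, an adipocyte gene, fell by 2.94 on the log2 scale (adjusted p = 1.5e-07), 1 of 5 adipocyte markers called. The mean level of these 5 markers was lower in lactating jejunum, at 5.45 to 5.81 against 6.39 to 6.60 in controls. Their summed level, which the brightest markers dominate, was 10.61 to 10.97 in controls and 10.86 to 11.08 in lactating rats. The summed enterocyte level was 15.36 to 15.50 in controls and 15.34 to 15.45 in lactating rats. The mean level of 3 ileal enterocyte markers was 7.82 to 9.51 in control and 7.18 to 7.68 in lactating jejunum, and none of the 3 was called there. Of these, Fabp6, the ileal bile acid binding protein, was at 10.48, 5.68, 6.79 and 5.98 against 6.05, 5.78, 5.78 and 4.96, with 1 control pool far above the rest. In ileum, Spink4, a goblet cell gene, rose by 1.46 (adjusted p = 0.00639), 1 of 3 goblet markers measured, and the summed goblet level went from 13.58 to 13.89 in controls to 14.25 to 14.45. The summed level of 5 cycling cell markers was 11.15 to 11.40 in control ileum and 11.68 to 11.94 in lactating ileum, and that of enterocytes 14.72 to 14.89 and 14.76 to 14.92. None of the 5 enterocyte markers measured was called between states in any segment. With the replicate block Lct, lactase, was called lower in ileum, at 9.22, 10.21, 7.62 and 9.13 in controls and 8.12, 9.33, 5.43 and 6.26 in lactating rats, with a difference of -1.76 ± 0.53 (adjusted p = 0.107, and 0.0352 with the block). The block also called the cycling markers Ccnb1 (adjusted p = 0.0203) and Cdk1 (adjusted p = 0.0266) higher in ileum, where it called 3.78% of all clusters. Without the block these 2 of 5 were called higher for the average over the 4 tissues (all clusters 2.51%). The summed cycling level was 9.76 to 10.15 in control and 10.43 to 10.90 in lactating duodenum. It was 6.08 to 6.34 and 6.61 to 6.80 in liver, and overlapped in jejunum at 8.58 to 9.45 and 8.71 to 9.82. The part of the other cell types in the results of these tissues was not tested.

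Genes that work beside these carriers were counted from 6 lists. Of 8 measured channels of chloride, bicarbonate and potassium recycling, 1 was called in a tissue, Kcnq1, a potassium channel subunit, where 1.28% of all clusters were called in ileum. It was at 7.84, 7.74, 7.71 and 7.80 in control ileum and 7.20, 7.24, 7.43 and 7.17 in lactating ileum, with no overlap and a difference of -0.51 ± 0.12 (1.43-fold lower, adjusted p = 0.0198). None of 7 sodium pump and sodium channel genes, 5 guanylin and cyclic nucleotide genes or 9 scaffolds and kinases was called in a tissue, where 0.643% to 1.88% of all clusters were. Of 10 genes of the carbonic anhydrase family, Car3 alone was called, in jejunum, where 0.808% of all clusters were called. It was lower there with a difference of -2.84 ± 0.30 (adjusted p = 1.84e-06), from 8.02, 8.23, 8.28 and 8.60 to 5.04, 5.99, 5.96 and 4.75. Car3 is abundant in adipose tissue and muscle. Adipoq fell in the same segment, as 1 of 5 adipocyte markers called. The summed adipocyte level there was 10.61 to 10.97 in controls and 10.86 to 11.08 in lactating rats. None of 5 smooth muscle markers was called there (median difference 0.05), and no marker list was made for skeletal muscle. The part of either tissue in the Car3 difference was not tested.

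The replicate block added calls among these lists, as it did over all clusters. With it 4.13%, 1.86% and 2.1% of all clusters were called in liver, duodenum and jejunum, against 1.88%, 0.643% and 0.808% without it. Channels gained Clcn2, higher in duodenum (adjusted p = 0.0251) and jejunum (adjusted p = 0.00661), Kcnn4, lower in jejunum (adjusted p = 0.00375), and Kcne3, lower in liver (adjusted p = 0.0298). The sodium pump list gained Atp1b1 (adjusted p = 0.0378) and the channel subunit Scnn1a (adjusted p = 0.0327), both higher in liver. Car4 was called higher in duodenum (1.02 ± 0.26, adjusted p = 0.0284, and 0.0693 without the block). Of the scaffolds and kinases, Stk39 was lower in liver (adjusted p = 0.0224), and Chp1, a cofactor of sodium-hydrogen exchangers, was higher in duodenum (adjusted p = 0.0426) and jejunum (adjusted p = 0.00765). Of the sulfate genes, Sult1b1 was higher in liver (adjusted p = 0.0256) and duodenum (adjusted p = 0.0468), and Sult1a1 was lower in jejunum (adjusted p = 0.0428). Without the block, Chp1 was called higher over the mean of the 3 segments (0.26 ± 0.07, adjusted p = 0.0344). Kcnq1 and Car3 were called lower there (all clusters 2.73%). Limma's test of unequal differences over the 4 tissues called Stk39 (adjusted p = 0.0414), Kcnq1, Car3 and Sult2b1 without the block (all clusters 2.05%).

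Of 5 measured genes of sulfate activation and transfer, 2 were called in liver, where Slc13a4 fell and 1.88% of all clusters were called. Papss2, which makes the activated sulfate donor, was at 9.99, 10.34, 10.21 and 10.15 in control liver and 9.53, 9.81, 9.82 and 10.03 in lactating liver, a difference of -0.38 ± 0.10 (1.30-fold lower, adjusted p = 0.0415) with 1 lactating pool above the lowest control pool. Sult2b1, a sulfotransferase of cholesterol and other sterols, was at 6.31, 5.87, 6.18 and 6.29 against 6.96, 6.91, 6.76 and 6.59. Its lactating pools were all higher, by 0.64 ± 0.09 (1.56-fold, adjusted p = 2.56e-05). Along the control intestine Papss2 was 6.45 ± 0.09 higher in duodenum than in ileum (87.3-fold), while the same difference of Slc13a1 was -0.78 ± 0.13.

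The partner genes also had segment gradients. Cftr, the apical chloride and bicarbonate channel, was 1.29 ± 0.14 higher in control duodenum than in ileum (2.45-fold, adjusted p = 3.1e-08), and Car2, the cytosolic carbonic anhydrase, was 3.76 ± 0.28 higher (13.5-fold, adjusted p = 2.66e-11). Car4, the membrane-bound form, was lower in duodenum, with a difference of -3.70 ± 0.24 (adjusted p = 8.45e-13), and Guca2a, guanylin, had a difference of -1.25 ± 0.14 (adjusted p = 1.19e-07). In all, 4 of 8 channels, 6 of 10 carbonic anhydrases, 3 of 5 guanylin genes, 3 of 9 scaffolds and kinases, 4 of 5 sulfate genes and 1 of 7 sodium pump and channel genes, Scnn1a, differed between control duodenum and ileum, where 20.8% of all clusters did.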

How the data were processed

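The authors deposited log2 expression values, 1 per transcript cluster (19434) and array (32), made with Affymetrix Expression Console by RMA (background correction, quantile normalization, log2 summary of exon probes) on the extended probe set; neither version is given in the sources used here. RMA compresses low values. The labels name whole-organ homogenates, whereas the study's methods describe scraped mucosa for intestine. Genes were named from platform annotation.

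Group means of the 8 groups (4 pools each) were fitted with limma 3.58.1 in R 4.3.3, with pool as a random block (duplicateCorrelation, correlation 0.163) and Benjamini-Hochberg adjustment over all clusters, two-sided, threshold 0.05. The fit was tested on simulated data. Same-numbered control and lactating pools deviated together to differing degrees (correlations 0.344, 0.154, 0.105 and 0.555, different numbers -0.347 to 0.104), so the replicate number was tried as a further block. The pool correlation was then -0.0436, and a negative value lowers the SE of averages over tissues. Values in every pool were given for genes and partner genes called for lactation and for the 10 largest called control differences between duodenum and ileum, and the rest as means or counts. Alternatives were no pool block, array weights, quantile normalization within each tissue, a group mean of 6 or more, a mixed model per gene, a tissue's arrays alone and leaving out each pool. Genes and lists were chosen with earlier results of these data known. Whether pools are independent beyond their rats is not stated. The number of arrays limits precision.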

Additional observations from a re-analysis of the deposited data

Results flagged for a closer look

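Of 304 groups of 4 pools (38 genes in 8 groups), 19 held a pool far from the other 3 by Dixon's criterion at its 95% critical value, and chance alone gives about 1 group in 20. For genes whose pools are given above, these were Slc4a10 in control jejunum (6.87 in pool 1, others 7.62 to 7.66), Slc9a8 in control jejunum (6.57 in pool 1), in lactating jejunum (7.03 in pool 4) and in control ileum (7.47 in pool 4), and Slc9a9 in lactating liver (5.73 in pool 4). Further such pools were found for Slc12a8 in lactating jejunum (7.86 in pool 2), Slc13a1 in lactating liver (3.29 in pool 1), Slc26a3 in lactating liver (3.13 in pool 1) and Slc26a8 in control jejunum (6.03 in pool 2).

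The lactation difference itself differed between tissues for Slc13a1 (adjusted p = 0.000396) and Slc13a4 (adjusted p = 3.01e-05) by limma's test over the 4 tissues. Between liver and intestine it differed for Slc13a4 (adjusted p = 3.67e-06) and Slc13a3 (adjusted p = 0.0406, but 0.0519 with the replicate block, and lost in 10 of 14 alternatives), and between jejunum and ileum for Slc13a1 (adjusted p = 0.000545).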

How the results depend on the processing

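Genes called for lactation, with 38 tested, moved as follows. In liver 2 were called, against 1 in a mixed model per gene, 1 with liver arrays alone and 1 to 3 with a pool left out. In duodenum 0 were called (at an adjusted p under 0.05 in limma), against 1 with the replicate block and 1 with array weights. In jejunum 2 were called, against 4 with the replicate block, 0 with jejunal arrays alone and 1 to 3 with a pool left out. In ileum 1 was called, against 4 with the replicate block, 2 with array weights, 0 with ileal arrays alone and 0 to 1 with a pool left out. For the average over tissues, 3 became 12 with the replicate block, 6 with no pool block, 5 with array weights, 0 with a group mean of 6 or more, 0 in the mixed model and 0 to 4 with a pool left out. Changed gradients went from 1 to 2 with a group mean of 6 or more, and were 1 to 2 with a pool left out. The cause of these shifts was not tested. The interaction and the control contrasts of segments and of liver against intestine stayed within 1.5 times under every alternative run, and no direction reversed. Among the 38 genes, the replicate block changed no further call within a tissue beyond those named above, and its calls among partner genes are given with their lists. The next-highest row of a gene could not be tried, as each gene had 1 row. Signal near background limits the low genes.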
